A study of Mus musculus with 6 samples.

Results

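Peroxisome biogenesis genes and catalase are described here in the liver of mice given trichloroethylene (TCE). The 9 genes are Pex11a and Pex11g, which elongate and divide the organelle, Pex3, Pex16 and Pex19, which build its membrane, Pex5, Pex13 and Pex14, which bring proteins into it, and Cat, which encodes the matrix enzyme catalase. They were chosen by gene symbol, out of 24237 symbols on the array. Pex11g carries its older symbol Pex11c in the deposited table and was matched to it by Entrez gene number, whereas the other 8 genes were found by their exact symbols. All 9 genes had at least 1 probe well above background, and 12 of their 13 probes passed that filter. The arrays measured liver RNA of 3 male B6C3F1 mice given corn oil by mouth and of 3 given TCE at 1000 mg/kg b.w. daily for 5 days, all aged 7 weeks. Each mouse had an array of its own with a single dye, and the signal was well above background for 23538 to 24968 probes per array. The array of control mouse 1 came from a separate slide and scan, and the other 5 arrays shared a slide and a scan.

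Peroxisomes break down fatty acids and make hydrogen peroxide, which catalase removes inside the organelle. They arise by growth and division of existing peroxisomes, in which PEX11 proteins bend and elongate the membrane before fission, and by the insertion of membrane proteins through PEX3, PEX16 and PEX19. Enzymes made in the cytosol carry a targeting signal that PEX5 recognizes, and PEX13 and PEX14 form the docking site at the membrane. In rodent liver, agonists of the nuclear receptor PPARα are known to make peroxisomes multiply.

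Pex11a was the 1 gene of the 9 that passed the test, which was limma (two-sided, a linear model in which probes share information on variance) at a limit of 0.05 after Benjamini-Hochberg adjustment over 22731 detected probes. Of all 13286 genes measured, each by the detected probe that was brightest on average, 317 passed, or 2.39%, and 239, or 1.80%, did so with a higher signal in the TCE group. Pex11a also had a fold change of at least 2, which together with a passing p was seen in 1.73% of all genes. The groups did not overlap in 4 of the 9 genes, against 27.9% of all genes. The mean signal was higher in the TCE group for 8 of the 9 genes and for 7058 of all 13286. The median log2 change was 0.23 over the 9 genes and 0.02 over all genes. An unadjusted limma p of 0.05 or less was found in 4 of the 9 genes and in 19.1% of all genes. By the methods' t-test 4 of the 9 and 19.0% of all genes had an unadjusted p of 0.05 or less, and 0 of the 9 passed it after Benjamini-Hochberg adjustment, where 0.279% of all genes passed. Pex11a was among the genes the study picked on these same arrays, so its direction here is not independent evidence.

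**Figure D1:**
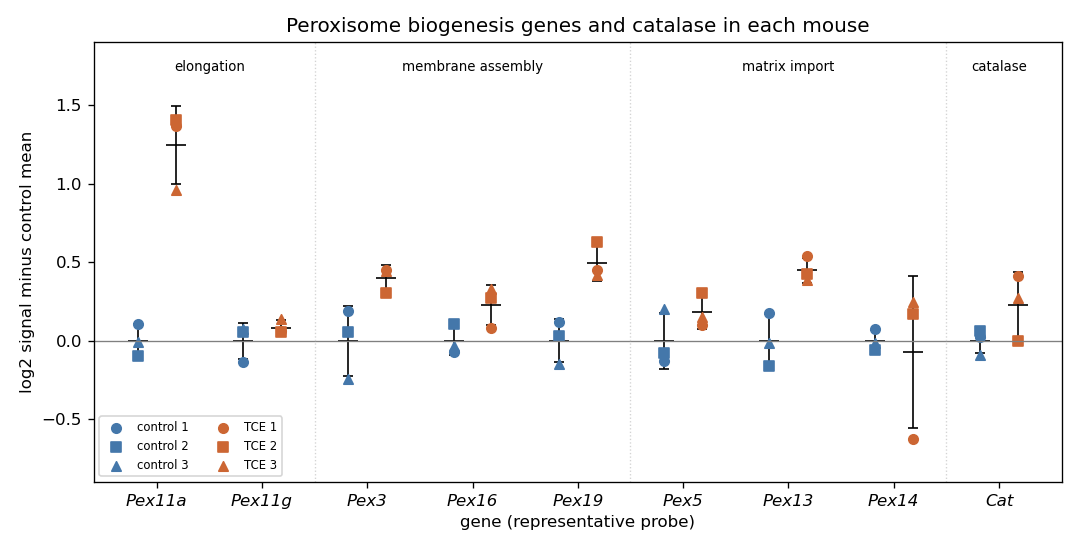
Log2 signal of each member gene in each mouse, as the difference from the mean of the control mice (vertical axis), by gene (horizontal axis); coloured points are mice and black bars are the group mean with its SD (n = 3). Pex11a in the TCE mice stands 0.96 to 1.41 above the control mean, and the other genes lie between -0.63 and 0.63.

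Pex11a promotes peroxisome elongation and is the PEX11 gene known for its response to peroxisome proliferators. Its log2 signal was 14.60, 14.39 and 14.48 in control mice 1, 2 and 3 and 15.86, 15.90 and 15.45 in TCE mice 1, 2 and 3. All TCE mice lay above all control mice, and TCE mouse 3 had the smallest increase. The mean of the controls was 14.49 ± 0.10 and that of the TCE mice 15.73 ± 0.25 (SD, n = 3 each). Pex11a rose by 1.24 on the log2 scale (SE 0.16, limma adjusted p = 0.0215). This is a 2.37-fold increase, with a 95% interval of 1.82 to 3.08, and 1.78% of all measured genes had a larger increase. In bulk liver, more cells with this transcript and more transcript per cell cannot be told apart.

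The call of Pex11a changed when single mice were left out. It was lost in 5 of the 6 limma fits that left out 1 mouse and passed only without TCE mouse 3, with log2 changes between 1.16 and 1.39 and adjusted p between 0.0257 and 0.103. With the slide as a block the log2 change was 1.30 (limma adjusted p = 0.0629). Among the 5 arrays of the shared slide, that is without control mouse 1, it was 1.31 (limma adjusted p = 0.0667). Control mouse 1 was alone on its slide, so these fits are nearly the same check. Over 15 alternatives with an adjusted p, these fits included, 9 lost the call, and the adjusted p ran from 0.00707 to 0.103. The direction was the same in every alternative run.

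The Pex11a probe was printed 10 times on each array, so that the spread between spots can be read as well. The SD of the log2 intensity between these spots was 0.034, 0.051 and 0.071 in control mice 1, 2 and 3 and 0.075, 0.24 and 0.035 in TCE mice 1, 2 and 3, with 0 spots marked as outliers. TCE mouse 2 thus had the widest spread within an array, which was still below its distance of 1.41 from the control mean. The probe lies on chromosome 7 from 86882223 to 86882282 on the minus strand of mm9. By its reading frame it appears to cover the end of the coding sequence, which was not checked against a gene table. Of its 60 bases 55 are shown, with the apparent stop codon in capitals.
Pex11a: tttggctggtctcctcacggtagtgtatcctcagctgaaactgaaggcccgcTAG

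Pex11g belongs to the same family and acts in the same membrane. Its probe on chromosome 8 from 3458831 to 3458890 of mm9 gave log2 signals of 14.00, 14.19 and 14.21 in control mice 1, 2 and 3 and 14.19, 14.19 and 14.27 in TCE mice 1, 2 and 3. The groups overlapped. Its log2 change of 0.08 had a 95% interval of -0.19 to 0.36 (limma adjusted p = 0.742), which leaves out a change as large as that of Pex11a. A second Pex11g probe had a log2 change of 0.17 (limma adjusted p = 0.540), and the third had no array with a signal well above background.

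Among the genes of membrane assembly, Pex3 encodes the membrane anchor to which PEX19 delivers its cargo. The log2 signal of Pex3 was 11.09, 10.96 and 10.66 in control mice 1, 2 and 3 and 11.36, 11.21 and 11.35 in TCE mice 1, 2 and 3. The groups did not overlap, yet the log2 change of 0.40 with a 95% interval of 0.05 to 0.75 did not pass (limma adjusted p = 0.232). Pex19, the cytosolic receptor for peroxisomal membrane proteins, gave 11.14, 11.05 and 10.88 in control mice 1, 2 and 3 and 11.47, 11.65 and 11.44 in TCE mice 1, 2 and 3. These groups did not overlap either. The log2 change of Pex19 was 0.50 with a 95% interval of 0.19 to 0.81 (limma adjusted p = 0.123).

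Pex16, which recruits PEX3 to the membrane, had log2 signals of 12.48, 12.66 and 12.52 in control mice 1, 2 and 3 and 12.64, 12.83 and 12.88 in TCE mice 1, 2 and 3. TCE mouse 1 fell within the control range. Pex16 had a log2 change of 0.23 with a 95% interval of -0.07 to 0.52 (limma adjusted p = 0.394). Its probe, on chromosome 2 from 92221196 to 92221255 on the plus strand of mm9, appears by its reading frame to cover the end of the coding sequence as well, again without a check against a gene table. Of its 60 bases 56 are shown, with the apparent stop codon in capitals.
Pex16: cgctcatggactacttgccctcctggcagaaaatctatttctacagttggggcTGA

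The import factors did not pass the test. Pex5 encodes the receptor that carries matrix enzymes from the cytosol. Its log2 signal was 11.59, 11.64 and 11.92 in control mice 1, 2 and 3 and 11.82, 12.02 and 11.86 in TCE mice 1, 2 and 3. The groups overlapped, since control mouse 3 exceeded TCE mice 1 and 3. The log2 change of Pex5 was 0.18 with a 95% interval of -0.15 to 0.51 (limma adjusted p = 0.533).

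Pex13, a docking factor, gave 12.07, 11.73 and 11.87 in control mice 1, 2 and 3 and 12.43, 12.31 and 12.27 in TCE mice 1, 2 and 3 on its brighter probe. The groups did not overlap on that probe. The log2 change was 0.45 with a 95% interval of 0.13 to 0.76 (limma adjusted p = 0.153). A dimmer Pex13 probe disagreed, with 5.31, 5.55 and 5.20 in control mice 1, 2 and 3 and 5.44, 2.94 and 5.18 in TCE mice 1, 2 and 3. It was well above background in 2 of the 3 TCE mice, and the low value of TCE mouse 2 set its log2 change of -0.83 (limma adjusted p = 0.548).

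Pex14, the partner of PEX13 at the docking site, gave 10.03, 9.89 and 9.94 in control mice 1, 2 and 3 and 9.32, 10.12 and 10.20 in TCE mice 1, 2 and 3. TCE mouse 1 lay below all control mice and TCE mice 2 and 3 above them. Over all mice the log2 change was -0.07 with a 95% interval of -0.66 to 0.52 (limma adjusted p = 0.911). Without TCE mouse 1 it was 0.21, so that this mouse set the sign.

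Catalase decomposes hydrogen peroxide in the peroxisome matrix. Its brighter probe, on chromosome 2 from 103294487 to 103294546 of mm9, gave log2 signals of 13.48, 13.52 and 13.37 in control mice 1, 2 and 3 and 13.87, 13.45 and 13.73 in TCE mice 1, 2 and 3. TCE mouse 2 lay within the control range and the others above it. For Cat the log2 change was 0.23 with a 95% interval of -0.11 to 0.57 (limma adjusted p = 0.458), or 1.17-fold with an interval of 0.924 to 1.49. A doubling of Cat lay outside this interval.

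The second Cat probe gave 12.55, 12.47 and 12.47 in control mice 1, 2 and 3 and 12.63, 12.55 and 12.67 in TCE mice 1, 2 and 3. Its groups did not overlap, although the difference was smaller, with a log2 change of 0.12 (limma adjusted p = 0.606). Its sequence matches chromosome 2 between 103297086 and 103300428 on the minus strand of mm9 and is interrupted there by an intron, so it reads spliced RNA.
Cat: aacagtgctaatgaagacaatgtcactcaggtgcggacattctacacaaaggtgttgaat

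The proliferation factor Pex11a was then set against the import factors within each mouse, by subtracting the log2 signal of the import factor and taking the control mean as 0. For Pex5 this difference was 0.24, -0.02 and -0.21 in control mice 1, 2 and 3 and 1.27, 1.11 and 0.81 in TCE mice 1, 2 and 3. For Pex13 it was -0.07, 0.06 and 0.01 in the control mice and 0.83, 0.98 and 0.57 in the TCE mice. For Pex14 it was 0.03, -0.04 and 0.01 in the control mice and 2.00, 1.24 and 0.71 in the TCE mice. In each of these pairs all TCE mice lay above all control mice. The log2 change of Pex11a exceeded that of Pex5 by 1.06 (95% interval 0.57 to 1.55 by limma), that of Pex13 by 0.80 (0.36 to 1.23) and that of Pex14 by 1.32 (0.61 to 2.02). The exact permutation test (two-sided) gave p = 0.1 for each pair, the smallest value that 3 mice against 3 allow, and 0.1 after Benjamini-Hochberg adjustment over 8 pairs. Leaving out any 1 mouse kept the lower end of the interval above 0, at 0.18 or more. The median over the 3 import factors was a difference of 1.06. The contrast was made for Pex11a alone. Pex11g, the other elongation gene, changed by 0.08, less than Pex5 (0.18) and Pex13 (0.45) and more than Pex14 (-0.07).

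**Figure D2:**
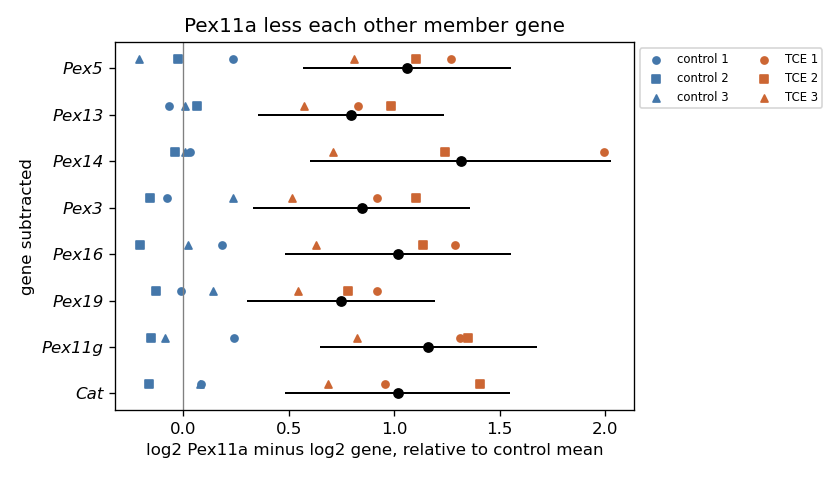
Log2 signal of Pex11a minus that of each other member gene (vertical axis), relative to the control mean (horizontal axis, log2 units); coloured points are mice, and the black point and line are the difference of changes with its 95% interval from limma. The differences run from 0.75 for Pex19 to 1.32 for Pex14, and every interval lies above 0.

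The same difference was 0.75 against Pex19, 0.85 against Pex3, 1.02 against Pex16, 1.16 against Pex11g and 1.02 against Cat. All their limma intervals lay above 0, the lowest bound being 0.30 for Pex19. Pex11a had the largest change of the 9 genes, so these comparisons restate that in part, and the intervals take no account of it. The differences share the Pex11a values and are not independent of each other, and their intervals are not adjusted for the number of pairs.

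A further 73 genes in 9 lists are called other peroxisome genes here. Some of them, such as the regulators and genes that remove peroxide and superoxide, are not confined to peroxisomes. Of the 73 genes, 67 were measured above background, and 5 passed the limma test, all with a higher signal in the TCE group. Over the 67 measured genes the median log2 change was 0.12, against 0.02 over all genes, and 44 were higher in the TCE group. The groups did not overlap in 30 of the 67, against 27.9% of all genes. An unadjusted limma p of 0.05 or less was found in 18, against 19.1% of all genes, and by the methods' t-test in 25, against 19.0%, of which 1 passed after Benjamini-Hochberg adjustment. With the slide as a block, and with any 1 mouse other than TCE mouse 3 left out, 2 genes passed, whereas 9 passed after normexp background correction.

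Enzymes of matrix fatty acid oxidation gave 4 of these 5 genes, out of 12 measured, with a median log2 change of 0.46. Ehhadh encodes the bifunctional enzyme of peroxisomal β-oxidation. Its log2 signal was 12.88, 12.58 and 12.70 in control mice 1, 2 and 3 and 16.11, 16.02 and 15.80 in TCE mice 1, 2 and 3. All TCE mice lay above all control mice. Ehhadh rose 9.55-fold, by 3.26 on the log2 scale (SE 0.14, limma adjusted p = 0.000766), and passed in all 6 leave-one-out fits. Acaa1b, a peroxisomal thiolase, rose 4.01-fold (log2 change 2.01, limma adjusted p = 0.00629) and passed in all 6 fits as well. Both were among the genes the study picked on these arrays.

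Ech1, which isomerizes dienoyl-CoA, rose 2.18-fold (limma adjusted p = 0.0259), and Eci2, an enoyl-CoA isomerase, rose 1.94-fold (limma adjusted p = 0.0296). Both calls were lost in 5 of the 6 leave-one-out fits and passed only without TCE mouse 3. The peroxide-producing oxidases had a median log2 change of -0.15 over 8 measured genes, and 6 of the 8 were lower in the TCE group.

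**Figure D3:**
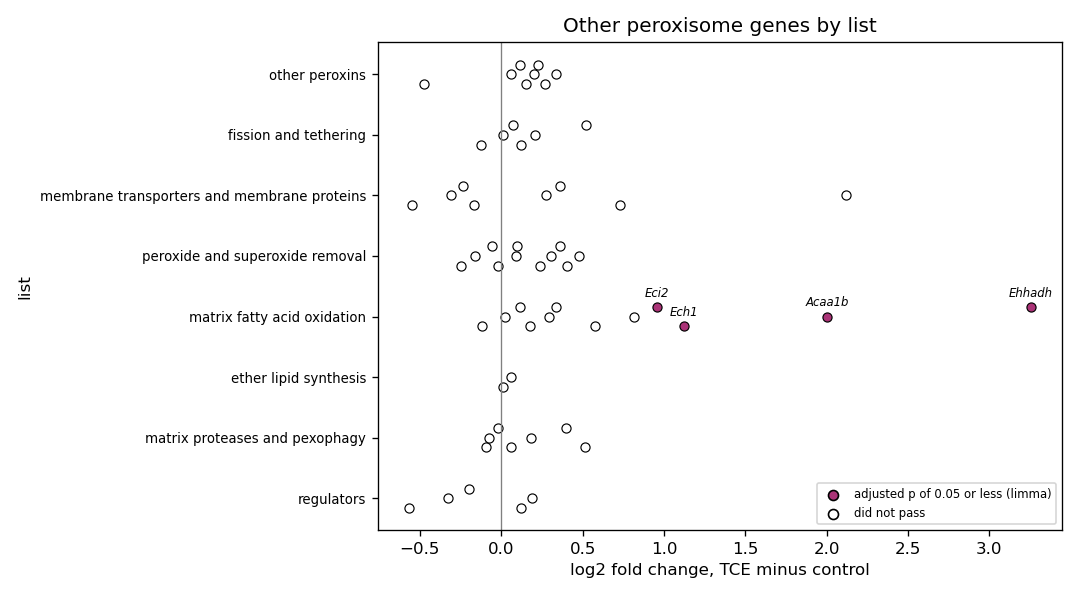
Log2 fold change, TCE minus control (horizontal axis), of other peroxisome genes by list, oxidases left out (vertical axis); each circle is a gene, and filled circles passed limma at an adjusted p of 0.05 or less. The 4 filled circles lie between 0.96 for Eci2 and 3.26 for Ehhadh.

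In the remaining 7 lists 0 genes passed by limma. Other peroxins had a median log2 change of 0.18 over 8 measured genes, and Pex6, part of the complex that recycles PEX5, had 0.06 (limma adjusted p = 0.824). Fission and tethering factors had a median of 0.09, with 0.12 for Fis1, a membrane adaptor of the fission machinery (limma adjusted p = 0.595). Membrane transporters and other membrane proteins were split, with 4 genes higher and 4 lower. Abcd3, a transporter of acyl-CoA, had log2 signals of 15.69, 15.43 and 15.77 in control mice 1, 2 and 3 and 16.43, 16.21 and 16.45 in TCE mice 1, 2 and 3. Its groups did not overlap, and its log2 change of 0.73 did not pass (limma adjusted p = 0.0645). Abcd2, chosen after its values were seen, had a larger fitted change of 2.12 that did not pass (limma adjusted p = 0.150), and its signal was well above background in 1 of the 3 control mice.

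Genes that remove peroxide and superoxide by other routes than catalase had a median log2 change of 0.10 over 11 measured genes. Gpx1, a glutathione peroxidase, had 0.09 (limma adjusted p = 0.728). Ether lipid synthesis had a median of 0.03 over 2 measured genes, with 0.06 for Gnpat (limma adjusted p = 0.826). Matrix proteases and pexophagy factors had a median of 0.06, with 0.19 for the protease gene Lonp2 (limma adjusted p = 0.509). Among 5 regulators the median was -0.20, and Ppara, the receptor of peroxisome proliferators, had 0.19 (limma adjusted p = 0.535). Over these 7 lists, 9 of 47 measured genes had an unadjusted limma p of 0.05 or less, against 19.1% of all genes, and 15 by the methods' t-test, against 19.0%, while 0 passed that test after Benjamini-Hochberg adjustment.

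The genes outside the 9 whose signal followed that of Pex11a most closely over the 6 mice were Pdk4 (Pearson r = 0.999), Gpx2 (r = 0.997), Ech1 (r = 0.995), Arl2 (r = 0.995) and Elmod3 (r = 0.995). These values describe 6 mice that fall into 2 separate groups, so a large part of each r is the difference between the groups. Pdk4, an inhibitor of pyruvate dehydrogenase, gave 7.47, 7.15 and 7.17 in control mice 1, 2 and 3 and 10.51, 10.52 and 9.63 in TCE mice 1, 2 and 3. TCE mouse 3 was the lowest of its group for Pdk4 as it was for Pex11a. Pdk4 was chosen by its r with Pex11a over these same mice, so this match follows in part from the choice. Gpx2 signals of all control mice were not well above background. Its r therefore uses control values that may be background. The group mean of Gpx2 was at least 1.82-fold higher in the TCE mice, a bound for the means that has no interval. This bound was taken against each array's lowest signal well above background or the probe's own where higher. Gpx2 entered the test only through the TCE mice, so its limma adjusted p of 0.0236 also rests on control values that may be background. No conclusion is drawn from that p. Arl2 did not pass, with a log2 change of 0.20 (limma adjusted p = 0.364).

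PPARα binds with RXR to direct repeats of the letters AGGTCA, so the RefSeq promoters (GRCm38.p6) of the 9 genes were searched for them on both strands in the 250 bases before the start of each transcript. Of the 9 genes 8 had an entry, with 11 promoters between them, and Pex19 had none. AGGTCA was found in 2 of the 11, against 14.0% of all 32851 promoters. The repeat of AGGTCA after 1 base, which 0.0335% of all promoters hold, was found in 0. A repeat this rare would be missing from nearly any 11 promoters, so its absence says nothing about these genes. The matches were in Pex11g and Cat, which did not pass the test, and not in Pex11a. Of the 5 other peroxisome genes that passed, 4 had an entry, and AGGTCA was found in 0 of their 4 promoters. Its absence from the Pex11a window thus does not set Pex11a apart from these genes, which also rose. The 3 windows shown are those of Pex11a, which rose, and of Pex11g and Cat, which carry the letters, given in capitals. They lie at chr7:79743132-79743381 for Pex11a, chr8:3467649-3467898 for Pex11g and chr2:103485154-103485403 for Cat, all on the minus strand. A match describes these letters in this window and no more.
Pex11a: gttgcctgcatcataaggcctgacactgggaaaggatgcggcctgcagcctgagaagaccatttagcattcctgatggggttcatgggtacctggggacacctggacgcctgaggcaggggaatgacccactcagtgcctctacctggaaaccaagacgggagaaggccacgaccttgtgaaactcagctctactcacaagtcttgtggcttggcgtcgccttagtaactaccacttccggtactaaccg
Pex11g: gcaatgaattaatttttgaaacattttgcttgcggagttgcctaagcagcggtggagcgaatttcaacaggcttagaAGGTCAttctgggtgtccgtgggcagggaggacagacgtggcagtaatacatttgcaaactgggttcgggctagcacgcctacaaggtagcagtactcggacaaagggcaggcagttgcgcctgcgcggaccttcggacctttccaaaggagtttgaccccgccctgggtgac
Cat: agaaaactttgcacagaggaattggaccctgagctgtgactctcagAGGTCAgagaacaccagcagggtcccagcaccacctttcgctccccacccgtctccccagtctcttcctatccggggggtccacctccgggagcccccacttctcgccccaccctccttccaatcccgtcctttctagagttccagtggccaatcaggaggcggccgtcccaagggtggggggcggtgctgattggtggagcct

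Markers of the cells in liver were read in the same arrays, as sums of normalized signal divided by 1000. The 8 hepatocyte markers, of which Alb was the most abundant, summed to 1320, 1335 and 1316 in control mice 1, 2 and 3 and 1191, 1309 and 1365 in TCE mice 1, 2 and 3. Of them, 4 had higher and 4 had lower means after TCE, and all 8 were well above background in every mouse. All 8 endothelial markers had lower means in the TCE group, and 0 passed by limma. Their sum, led by Clec4g, was 25.7, 25.1 and 25.5 in control mice 1, 2 and 3 and 14.0, 27.1 and 24.6 in TCE mice 1, 2 and 3. TCE mouse 1, which also had the lowest Pex14 signal, thus had the lowest endothelial sum, and the part of this in the Pex14 value was not tested.

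Macrophage markers, led by Cd5l, summed to 27.7, 27.0 and 24.4 in control mice 1, 2 and 3 and 23.2, 23.5 and 29.1 in TCE mice 1, 2 and 3, and 7 of 8 had lower means in the TCE group. Stellate cell markers, led by Dcn, summed to 36.4, 27.7 and 40.4 in the control mice and 33.5, 37.3 and 30.4 in the TCE mice. Both ranges overlapped. Bile duct markers, led by Spp1, summed to 0.558, 0.577 and 0.423 in the control mice and 0.481, 0.482 and 0.357 in the TCE mice. Leukocyte markers, led by Nkg7, summed to 2.63, 2.80 and 2.82 in the control mice and 2.38, 2.25 and 3.08 in the TCE mice. These sums are led by single genes. Groups did not overlap in 2 of 7 measured stellate and 2 of 7 leukocyte markers, against 27.9% of all genes, and these 4 were looked at after their values were seen. Lrat was 0.393-fold (limma adjusted p = 0.0676) and Colec11 0.843-fold (0.361) the control level, while 3 of the 7 stellate markers were higher. S100a8 was 2.28-fold (0.0886) and Ptprc, well above background in 2 of the 3 control mice, 1.57-fold (0.381), while 3 of the 7 leukocyte markers were lower. None of these 4 stellate and leukocyte markers passed. Groups also did not overlap in 2 of 8 hepatocyte markers, Apoa1 at 0.809-fold (limma adjusted p = 0.215) and Tat at 1.28-fold (limma adjusted p = 0.255). The same held for 1 of 8 endothelial markers, Stab2 at 0.690-fold (limma adjusted p = 0.345), and 1 of 5 measured erythroid markers. It held for 0 of 8 macrophage and 0 of 3 measured bile duct markers. Des, Krt7, Epcam, Cftr, Ms4a1, Ahsp and Epb4.2 were not well above background on all arrays of either group. Erythroid markers, led by Hba-a1, summed to 126.1, 90.4 and 88.2 in the control mice and 68.0, 33.4 and 106.4 in the TCE mice. Of their 5 measured genes 1 passed, Alas2, the first enzyme of heme synthesis in red cell precursors, which was 0.532-fold the control level in the TCE group (limma adjusted p = 0.0215). The part of these markers in the changes of peroxisome genes was not tested.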

How the data were processed

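Liver RNA of 3 control and 3 TCE mice was measured with 1 array each. The authors deposited the scanner output of Agilent Feature Extraction 10.7.1.1, which gives a background-subtracted intensity, mean and local background intensity and flags for each spot, and quantile-normalized log2 means per group with mm9 probe positions. The 6 flag columns for single arrays there, whose names could not be matched to samples, were not used.

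The processed intensity of 59305 non-control spots (55681 probes) was put on the log2 scale, outlier-flagged spots were set to missing, spots of a probe were averaged and arrays quantile normalized. Detected probes were those well above background on every array of 1 group or both, and the brightest of them, on average, stood for a gene. For 99.99% of probes the control mean lay within 0.01 of the deposited log2 mean. Gene symbols were updated to RefSeq through Entrez numbers, for 31303 probes matched and 2426 changed. Pex11g was matched in this way after seeing the data. Detected probes were compared in R 4.3.3, using the lmFit and eBayes functions of limma 3.58.1 with a term for group alone (files were read with version 1.17.8 of data.table). Exact permutation used all 20 arrangements. The number of arrays limits the precision, and p-values measure the spread between these animals.

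All 9 genes were named, with up to 4 passing genes of each list (where none passed, the gene with the highest mean signal) and the 5 genes most like Pex11a. Results of some listed genes are not reported here; the counts by list include them, and the figure of the lists leaves out the list of oxidases. The members and lists were chosen with earlier results of these data known. Alternatives were 75th percentile scaling, normexp background correction with an offset of 50, other filters, no removal of outlier spots, slide or replicate number as a block, each mouse left out, the methods' t-test, the mean of a gene's probes and the deposited group means. The procedure was tested on simulated data, where it recovered 0% of log2 changes of 0.5, 28.4% of changes of 1 and 74.2% of changes of 2. A gene that did not pass, such as Pex3, Pex13 or Pex19, may therefore still have changed by about 0.5 or less. Other doses and assays of the study were not analysed here.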

Additional observations from a re-analysis of the deposited data

How the results depend on the processing

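The direction of the change was the same for 7 of the 9 genes under each of 17 alternatives. Pex13 had -0.19 as the mean of its detected probes, because the dim probe enters, and Pex14, at -0.07, ran from -0.23 to 0.21 with 1 mouse left out, above 0 only without TCE mouse 1. Pex11a passed with 75th percentile scaling, normexp, the stricter filter, outlier spots kept and the mean of probes. It did not pass without the filter on dim probes (log2 change 1.24, limma adjusted p = 0.0888), where more probes are tested, with the slide as a block (1.30) or by the methods' t-test after Benjamini-Hochberg adjustment (1.24, adjusted p = 0.0846). With 1 mouse left out it ran from 1.16 to 1.39. The number of member genes passing, 1, became 0 without the filter, with the slide as a block and by the adjusted t-test, 4 by the unadjusted t-test, and 0 to 1 with 1 mouse left out. The 5 other peroxisome genes became 9 with normexp, 2 without the filter, 2 with the slide as a block, 25 and 1 by the unadjusted and adjusted t-test, and 2 to 4 with 1 mouse left out. The difference between Pex11a and the import factors, 1.06, became 1.32 with the mean of probes. The cause of these shifts was not tested beyond what is stated.

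Over all probes 456 passed, and 104 without the filter, 177 with the slide as a block and 114 to 252 with 1 mouse left out, settings chosen after seeing the data. Control and TCE mice share only replicate numbers: deviations of same-numbered mice correlated at 0.090, 0.0066 and -0.092, and not every mouse correlated best with its own number. With the replicate block 63 probes, 0 member genes and 1 other peroxisome gene passed, and Pex11a had 1.24 (limma adjusted p = 0.103). Signal over background limits only the dim probes of Pex13 and Pex11g among the members.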
